A study of Mus musculus with 2 samples.

Results

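The granins and the proteins that process prohormones were followed as 10 genes in ribosome profiling of mouse brain polysomes. The members were listed by name: the granins Chga, Chgb, Scg2, Scg3 and Vgf, the chaperone Scg5, the inhibitor Pcsk1n, the convertases Pcsk1 and Pcsk2, and the carboxypeptidase Cpe. All 10 were found among the 45578 genes of the deposited table, and all 10 averaged 10 or more footprints per library. Both animals carried 1 disrupted copy of mouse Smn and a human SMN2 transgene (Smn+/-; SMN2tg/0) on the FVB background and were taken at postnatal day 5 as controls of a spinal muscular atrophy model. They formed 1 group of 2 biological replicates, so no other genotype stands beside them. A footprint is the stretch of mRNA that a ribosome shields from nuclease, and fragments of 25 to 35 nucleotides were sequenced. Whole brains were used, so fewer cells of a type and less RNA per cell cannot be told apart.

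Granins are acidic proteins stored with peptide hormones in dense-core vesicles, the organelles from which neurons and endocrine cells release peptides on demand. Inside these vesicles the convertases PC1/3 (Pcsk1) and PC2 (Pcsk2) cut prohormones after pairs of basic residues, and carboxypeptidase E (Cpe) removes the basic residues that remain at the cut end. Scg5 encodes 7B2, which PC2 needs to mature and which also inhibits it. Pcsk1n encodes proSAAS, an inhibitor of PC1/3. Granins are themselves cut into peptides by the same enzymes.

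The libraries held 1866831 footprints in replicate 1 and 5261878 in replicate 2, a ratio of 2.82. Levels are given as CPM, counts scaled to a library of 1e6 footprints. For a gene with no footprint, 3 counts set the upper limit, which is 1.61 CPM in replicate 1 and 0.570 CPM in replicate 2. Defining markers of the labelled tissue were present: all 7 neuronal and all 5 astrocyte markers on lists of brain cell types had footprints in both libraries. Intervals in brackets are 95% Clopper-Pearson intervals within 1 library and cover counting error only. They would be too narrow where PCR copies were counted, because such copies are not independent molecules. The same holds where a fragment shared by transcripts of 1 gene was counted more than once.

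Together the 10 genes held 6617 footprints in replicate 1 and 12047 in replicate 2. Replicate 1 thus gave a summed level of 3545 CPM (3459.8 to 3631) and replicate 2 one of 2289 CPM (2249 to 2331). The mean was 2917 ± 887 CPM (SD, n = 2), or 0.292% ± 0.0887 of all footprints. The level was higher in replicate 1 by more than counting error. Cpe alone held 26.3% of the members' footprints in replicate 1 and 23.6% in replicate 2, while Pcsk1 held 0.287% and 0.448%.

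Promoter sequence is shown for 4 members, because the cyclic AMP response element is a textbook control element of granin and convertase genes. Its part in the values below was not tested. Of the 10 genes, 8 were matched by symbol to the promoter windows used here, from RefSeq (build GRCm38.p6), covering 250 bases before to 50 bases after the start site. Vgf and Cpe were not matched. The palindrome TGACGTCA, which reads the same on both strands, was found in 3 of the 8 windows, Chgb, Scg2 and Pcsk1, beside 1.79% of all 32851 windows. The shorter core TGACG, searched on either strand as TGACG or CGTCA and also counted inside the palindrome, was found in 7 of the 8 windows and in 20.8% of all windows. Each line below gives 80 bases 5′ to 3′, from position -100 to -21 relative to the start site. Capitals mark the palindrome or, in Chga, the core. The Pcsk1 line also holds a core outside its palindrome, left in lower case. Chgb lies at chr2:132781542-132781621 on the plus strand, Scg2 at chr1:79440047-79440126 on the minus strand, Pcsk1 at chr13:75089757-75089836 on the plus strand and Chga, which held the core alone, at chr12:102554841-102554920 on the plus strand.
Chgb: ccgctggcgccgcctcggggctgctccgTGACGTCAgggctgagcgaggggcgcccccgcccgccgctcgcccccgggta
Scg2: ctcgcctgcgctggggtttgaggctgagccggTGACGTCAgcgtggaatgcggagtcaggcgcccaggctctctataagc
Pcsk1: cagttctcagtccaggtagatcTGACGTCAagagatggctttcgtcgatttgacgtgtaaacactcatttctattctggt
Chga: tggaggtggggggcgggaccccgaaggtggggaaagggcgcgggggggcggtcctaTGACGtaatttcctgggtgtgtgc

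The 3 palindromes began at positions -72 in Chgb, -68 in Scg2 and -78 in Pcsk1. A match of letters is a description and not a measured binding site. Pcsk1n held neither the palindrome nor its core.

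Levels are compared between genes as footprint density, which is the CPM value divided by the kilobases of coding sequence. Over the 13317 coding genes that averaged 10 or more footprints, the median density was 23.9, and the 10% of genes with the highest density began at 154. Of the 10 members, 6 lay in that top 10%. With replicate 2 alone they numbered 5, and with replicate 1 alone 7.

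The 5 granins had mean densities between 121 and 194. Scg2 (secretogranin II, the precursor of secretoneurin) had 736 and 1720 footprints in replicates 1 and 2. Its density was 213 in replicate 1 and 176 in replicate 2, a mean of 194 ± 25.7 (SD, n = 2), at percentile 92.6 of coding genes. Vgf, a granin-like precursor induced by nerve growth factor, had 771 and 1538 footprints and a density of 223 and 158, a mean of 190.2 ± 46.0. The level of Vgf was above that of Scg2 in replicate 1 and below it in replicate 2, so the order of this pair is not settled.

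Chga (chromogranin A, the founding granin of adrenal chromaffin granules) had 547 and 913 footprints. Its density was 210.5 and 125, a mean of 168 ± 60.7, at percentile 90.9. Scg3 (secretogranin III, which tethers granins to the vesicle membrane) had 415 and 977 footprints and a density of 157 and 131, a mean of 144 ± 18.3. Chgb (chromogranin B) had 562 and 1006 footprints and a density of 148 and 94.0, a mean of 121 ± 38.2, at percentile 86.8. With transcripts summed, Chgb was the granin with the lowest density in both replicates. Chga stood above Scg3 in replicate 1 and below it in replicate 2.

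Chgb had more footprints than Chga in both libraries but a coding sequence of 2034 nucleotides against 1392. Per length, Chgb over Chga was 0.703 (0.624 to 0.792) in replicate 1 and 0.754 (0.689 to 0.826) in replicate 2. The intervals of both libraries lay below 1.

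Per coding length, the chaperone and the inhibitor had higher densities than any granin in both replicates. By transcript length, with transcripts summed, Pcsk1n was below Scg2 and Vgf in replicate 2. Pcsk1n had 884 and 1101 footprints on a short coding sequence of 777 nucleotides. Its density was 609 in replicate 1 and 269 in replicate 2, a mean of 439 ± 241, at percentile 98.0. Scg5 had 598 and 1165 footprints on the shortest coding sequence of the 10, 639 nucleotides, and a density of 501 and 346, a mean of 424 ± 109. Pcsk1n was the higher of the pair in replicate 1 and Scg5 in replicate 2.

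With transcripts summed, the convertases themselves were the lowest members. Pcsk2 had 348 and 735 footprints and a density of 97.4 and 73.0, a mean of 85.2 ± 17.3, at percentile 81.4. Pcsk1 had 19 and 54 footprints on the longest coding sequence of the 10, 2262 nucleotides. That came to 10.2 CPM (6.13 to 15.9) and 10.3 CPM (7.71 to 13.4), above the limit that a count of 0 allows. Its density was 4.50 and 4.54, a mean of 4.52 ± 0.0265, at percentile 12.2. The replicate SD of Pcsk1 is smaller than its counting error, given the few footprints.

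Cpe had the highest density of the 10 in both replicates. It had 1737 and 2838 footprints and a density of 650.2 and 377, a mean of 514 ± 193, at percentile 98.5 and place 203 of the coding genes. The mean density of Cpe was 114 times that of Pcsk1. None of the 10 reached the top 1% of coding genes, which began at 640.4 by mean density.

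In order of mean density, with transcripts summed, the members ran Cpe, Pcsk1n, Scg5, Scg2, Vgf, Chga, Scg3, Chgb, Pcsk2 and Pcsk1. The places of Scg2 and Vgf depend on the sum, since fragments shared by transcripts may count more than once. The highest transcript of Vgf held 246 and 496 footprints over 1854 coding nucleotides, fewer per length than that of Pcsk2 (296 and 640 over 1914). That of Scg2 held 389 and 899 over 1854, fewer per length than Chgb (562 and 1006 over 2034). The replicate ranges of neighbours were separate at 2 of the 9 steps, between Scg5 and Scg2, with a ratio of 2.18, and between Pcsk2 and Pcsk1, with a ratio of 18.9. At the other 7 steps the ranges overlapped, so those neighbours are not separated by their spread over replicates. Of these 7, the order was the same in both replicates for Cpe over Pcsk1n, Vgf over Chga, Scg3 over Chgb and Chgb over Pcsk2. Chgb over Pcsk2 was 1.52 in replicate 1 and 1.29 in replicate 2, and within each library the counting intervals of this pair were apart.

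**Figure D1:**
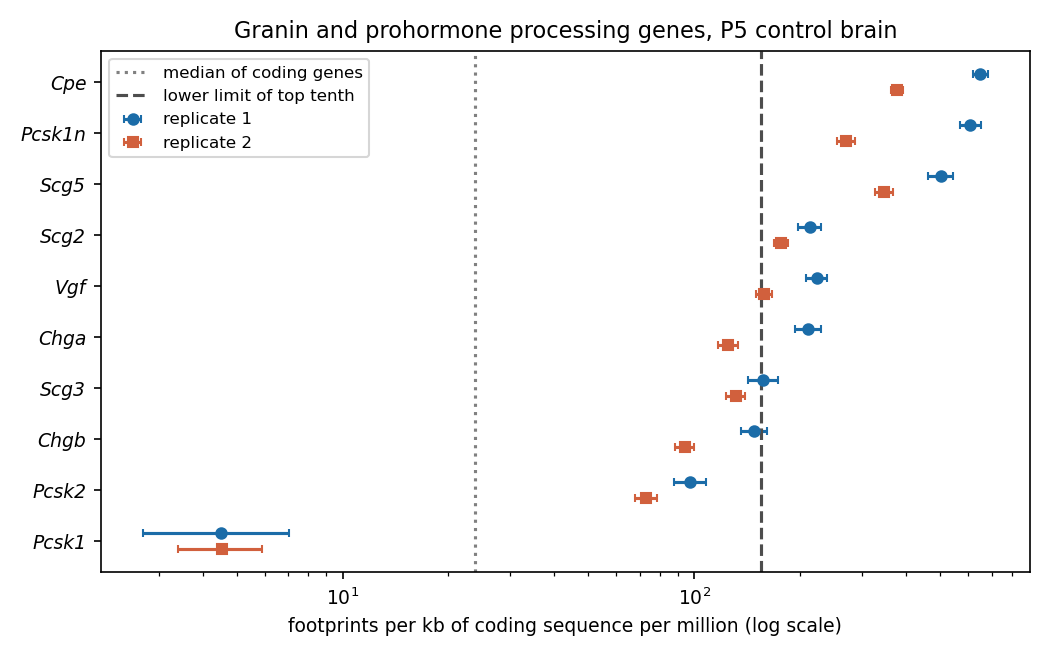
Footprint density of the 10 members (CPM per kilobase of coding sequence, log axis) in replicate 1 (circles) and replicate 2 (squares), with 95% counting intervals; the dotted line is the median of coding genes (23.9) and the dashed line the start of the top 10% (154). Pcsk1 lies below the median in both replicates, and every other member lies above it, with Cpe highest.

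Ratios within a library compare each enzyme with its partners and do not depend on the scaling between libraries. The density of Scg5 over that of Pcsk2, the chaperone over its enzyme, was 5.15 (4.50 to 5.89) in replicate 1 and 4.75 (4.33 to 5.21) in replicate 2, a mean of 4.95 ± 0.282 (SD, n = 2). Scg5 thus carried more footprints per length than Pcsk2 in both animals, and the intervals of the libraries overlapped. Counting coding transcripts alone gave a ratio of 4.35 ± 0.336.

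The density of Pcsk1n over that of Pcsk1, the inhibitor over its enzyme, was 135 (86.2 to 226) in replicate 1 and 59.4 (45.2 to 79.5) in replicate 2, a mean of 97.4 ± 53.8. The ratio was above 1 in both libraries, and the intervals of the libraries did not overlap. Dividing by transcript length in place of coding length gave 40.8 ± 22.6, since Pcsk1n has a long 3′ untranslated region of 1307 nucleotides. Counting coding transcripts alone gave 126 ± 64.7.

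Pcsk2 over Pcsk1 was 21.6 (13.7 to 36.4) in replicate 1 and 16.1 (12.2 to 21.6) in replicate 2, a mean of 18.9 ± 3.93. PC2 footprints thus exceeded PC1/3 footprints per length in both brains, also with transcript length as the denominator, at 9.05 ± 1.89. Cpe over Pcsk2 was 6.68 (5.95 to 7.51) in replicate 1 and 5.16 (4.76 to 5.61) in replicate 2. Cpe over Pcsk1 was 145 (92.3 to 241) in replicate 1 and 83.1 (63.5 to 111) in replicate 2. Of the summed density of the 10 members, Cpe held 22.3% ± 1.15, Scg5 18.8% ± 1.37, Pcsk1n 18.5% ± 4.46 and Pcsk1 0.209% ± 0.0698.

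**Figure D2:**
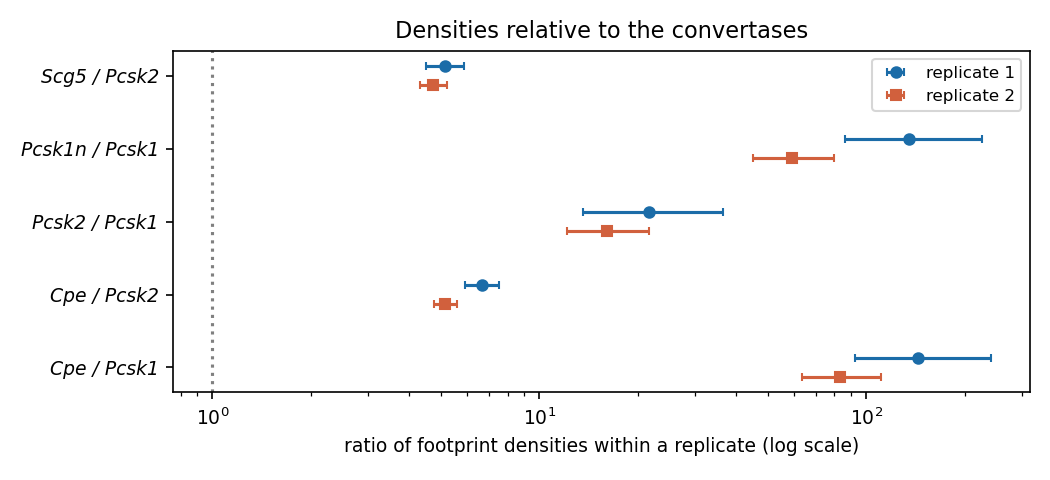
Ratio of footprint densities for 5 pairs of members within replicate 1 (circles) and replicate 2 (squares) on a log axis, with 95% counting intervals; the dotted line marks equal densities. All 5 ratios lie above 1 in both replicates, and the intervals are widest where Pcsk1, with 19 and 54 footprints, is the denominator.

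The table gave 17 transcripts for the 10 genes, of which 14 were annotated as protein coding. Chga, Chgb, Scg3, Pcsk1n and Cpe had 1 transcript each. Scg2 had 2 coding transcripts with coding sequences of 1854 and 1734 nucleotides. The longer held 52.9% (49.2 to 56.5) of the gene's footprints in replicate 1 and 52.3% (49.9 to 54.7) in replicate 2. The near-even split was the same in both libraries within counting error, and forms of 1 gene can share fragments, so the footprints are not assigned to one form here.

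Vgf had 4 coding transcripts, 3 of them with the same coding length of 1854 nucleotides and different untranslated regions. These 3 held 30.7%, 30.6% and 31.9% of the gene's footprints in replicate 1 and 31.2%, 29.1% and 32.2% in replicate 2. The split over these 3 was near even in both libraries. The short form Vgf-002, with a coding length of 422 nucleotides, held 6.74% (5.08 to 8.75) and 7.48% (6.21 to 8.91).

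Non-coding transcripts held footprints of 3 members. Scg5-002, annotated as a processed transcript of 593 nucleotides, held 24.2% (20.9 to 27.9) of Scg5 footprints in replicate 1 and 24.6% (22.2 to 27.2) in replicate 2. Pcsk2-001, a processed transcript, held 14.9% (11.4 to 19.1) and 12.9% (10.6 to 15.6) of Pcsk2. Pcsk1-002, a retained intron, held 4 of 19 and 14 of 54 Pcsk1 footprints. Footprints on these forms may belong to exons shared with the coding transcript, since the treatment of shared fragments is not given in the sources used here. Over all members such transcripts held 3.04% and 3.29% of the footprints.

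The libraries differed beyond counting noise at most members, with a lower share of footprints in replicate 2. Counts were compared by a two-sided exact binomial test at the ratio of TMM (trimmed mean of M values) effective library sizes, with Benjamini-Hochberg adjustment over 16427 genes. The test compares these 2 libraries, not conditions, and covers counting noise alone. Its p-values would be too small where fragments were counted more than once. It called 9 of the 10 members, all 9 lower in replicate 2. Over all genes tested 17.4% were called, and 11.5% were called lower in replicate 2. The median log2 ratio of the members, replicate 2 over replicate 1, was -0.64, beside 0.01 over all genes tested.

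Pcsk1n differed most. It had 474 CPM (443 to 506) in the first library against 209 CPM (197 to 222) in the second, a log2 ratio of -1.30 (exact binomial test, adjusted p = 7.65e-81). Of all genes tested, 0.268% had a lower log2 ratio. Cpe had 930.5 CPM (887 to 975) and 539 CPM (519.7 to 559.6), a log2 ratio of -0.91 (exact binomial test, adjusted p = 5.71e-87). The intervals of the libraries were far apart for both genes.

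Among the granins Chga had the lowest log2 ratio, at -0.88 (exact binomial test, adjusted p = 1.06e-25). It had 293 CPM (269 to 319) against 174 CPM (162 to 185). Chgb followed at -0.78 and Vgf at -0.62, and Scg5 stood at -0.66. Pcsk2 had a log2 ratio of -0.54 with an adjusted p of 5.37e-07 in the same exact test.

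The smallest called differences were those of Scg2 and Scg3, at log2 ratios of -0.40 and -0.38. Scg2 had 394 CPM (366 to 424) and 327 CPM (312 to 343), and Scg3 had 222 CPM (201 to 245) and 186 CPM (174 to 198). Both intervals were apart, but by little. Pcsk1 was the member that the exact binomial test did not call, with a log2 ratio of -0.11 and an adjusted p of 0.934. With 73 footprints in both libraries together, the interval of its log2 ratio ran from -0.89 to 0.72. This interval holds 0 and also the log2 ratios of the called members other than Pcsk1n and Cpe.

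Relative to library totals, TMM scaling shifted all log2 ratios by -0.13. With library totals the same number of members was called, 9, all lower in replicate 2, beside 7.47% of all genes called lower, and the log2 ratio of Pcsk1 was 0.01. edgeR's exact test, with a common dispersion taken from the same 2 libraries, called 0 members and 11 genes, or 0.0670%. At an unadjusted p under 0.05 it held 4 members, Pcsk1n, Cpe, Chga and Chgb, beside 4.38% of all genes, with 2.36% of all genes lower in replicate 2. The lowest adjusted p among members in that test was 0.217, for Pcsk1n.

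Log2 ratios fell with footprint density over all coding genes, and the members lie among the dense genes. In the 10% of coding genes with the highest density the median log2 ratio was -0.26, and 51.5% of the genes were called lower in replicate 2. All 6 members in that class were called lower. In the next 10% the median was -0.10 and 26.4% were called lower, and 3 of 3 members there were called lower (Scg3, Chgb and Pcsk2). Pcsk1 lay in a class with a median of 0.12, where 1.43% were called lower.

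With the trend on density removed before the test, 7 members kept their calls, beside 16.2% of all genes called. For this step density was taken per transcript length, not per coding length. Log2 ratios were then -0.99 for Pcsk1n, -0.61 for Chga, -0.58 for Chgb, -0.57 for Cpe and -0.52 for Pcsk2. Pcsk2, whose coding sequence is 40.5% of its transcript, changed little from -0.54. Pcsk1n, at 35.4%, moved from -1.30, so a low coding share did not go with a small change in both genes. Scg2 and Scg3 lost their calls, at -0.10 and -0.19 with adjusted p-values of 0.328 and 0.124 in the exact binomial test. The median of the members was -0.43 after removal. Across the 10 members the log2 ratio and the density had a Spearman's rho of -0.661; the points share both libraries, and the value is a description.

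**Figure D3:**
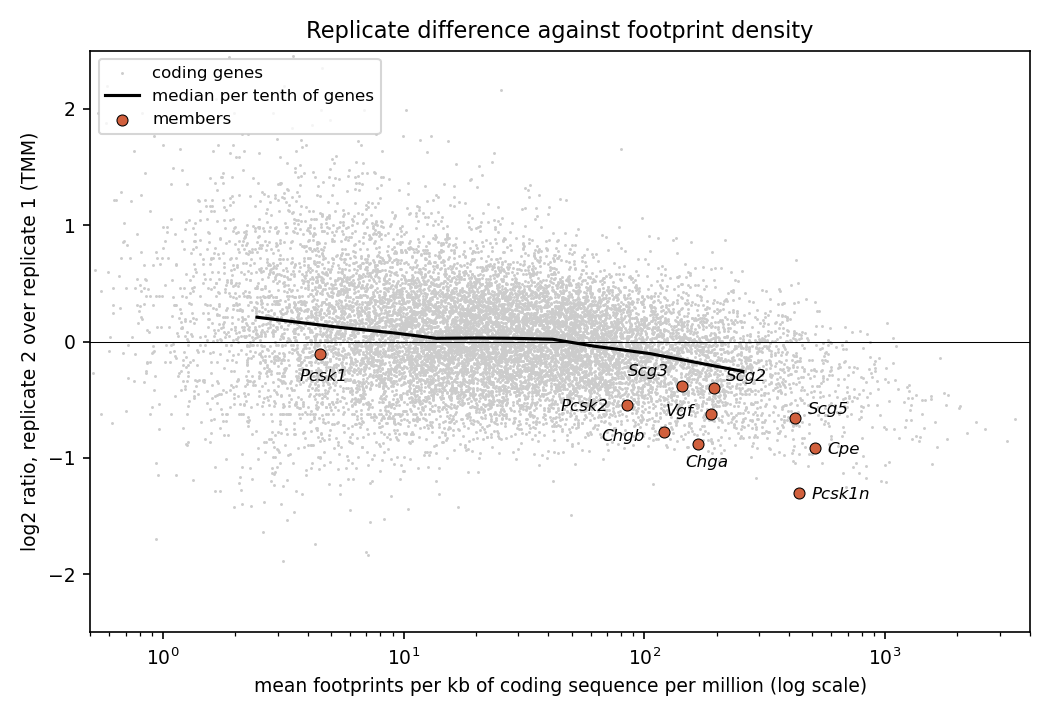
Log2 ratio of replicate 2 over replicate 1 (TMM scaling) against mean footprint density (log axis) for the 13317 coding genes tested (grey; 40 genes lie beyond the axes), with the median of each 10% of genes as a black line and the 10 members as labelled points. All members lie below the line, from Pcsk1 at -0.11 to Pcsk1n at -1.30.

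Markers of the pituitary, an organ rich in granins that lies against the brain, had too few footprints to be tested. All 7 together had 20 footprints in each library, or 10.7 CPM in replicate 1 and 3.80 CPM in replicate 2. Growth hormone, Gh, held 15 of the 20 in replicate 1 and 0 in replicate 2, while Prl and Tshb were at 0 in both. Cga, the shared subunit of the glycoprotein hormones, had 1 and 5 footprints and Pou1f1, a pituitary transcription factor, 3 and 12. The summed level of the pituitary markers was thus below that of any called member in both libraries.

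Forebrain markers were lower in replicate 2 for 5 of 5 genes, 4 of them called, with a summed level of 710.3 CPM in replicate 1 and 466 CPM in replicate 2. Nrgn, a calmodulin-binding protein of forebrain neurons, had 606 and 806 footprints and a log2 ratio of -1.21. Cerebellar granule cell markers had a summed level of 390.0 CPM and 487 CPM, with 2 of 5 called, both higher in replicate 2 (Neurod1 and Pax6). Purkinje cell markers had 133 CPM and 206 CPM, with Pcp2 called higher. Neuronal markers had 5386 CPM and 4340.5 CPM, with 4 of 7 called, all lower (Tubb3, Snap25, Syt1 and Stmn2). The median log2 ratio of the neuronal list was -0.20, and 0.04 with the density trend removed. After that removal Syt1 lost its call, and Map2 and Eno2 were called. With the trend removed the forebrain median was -0.39 and the cerebellar granule median 0.52. The part of regional make-up in the members' difference was not tested.

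Peptide precursors, the cargo that the members store and cut, were covered by a list of 29 genes, of which 23 could be tested. In this list 5 genes were called lower and 1 higher in replicate 2, with a median log2 ratio of -0.35. With the density trend removed the median of this list was -0.40, beside -0.43 for the members. The lower genes were Sst (somatostatin), Npy (neuropeptide Y), Cck (cholecystokinin), Pnoc (the nociceptin precursor) and Hcrt (the orexin precursor). Sst had 465 and 586 footprints, a density of 709.6 and 317 and a log2 ratio of -1.28. Its density exceeded that of Cpe in replicate 1 and not in replicate 2. Bdnf, a neurotrophin that is also packed into dense-core vesicles, was called higher, at 0.87 with 24 and 137 footprints. With the density trend removed Bdnf lost its call, Adcyap1 was called, and the 5 lower genes kept their calls. Penk and Tac1 were not called, at -0.26 and 0.01. Ucn had no footprint in either library, and Pomc, a classical substrate of both convertases, had 8 and 9.

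Other processing enzymes were spread over both directions. Of 13 tested, 2 were called lower, the cathepsins Ctsb at -0.72 and Ctsl at -0.50, and 1 higher, Pam at 0.48. Pam, the enzyme that amidates peptide ends after Cpe has acted, had 171 and 735 footprints and a density of 31.2 and 47.5, a mean of 39.3 ± 11.6 (SD, n = 2). It was lower per length than Cpe in both replicates. The list had a median log2 ratio of -0.23.

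Convertases outside the regulated pathway had low densities and no call. Their list held 7 genes, all tested, and the exact binomial test called 0, with 1 at an unadjusted p under 0.05, and edgeR's exact test called 0. Furin, the convertase of the constitutive pathway, had the highest mean density, 17.4, from 16.6 and 18.2. Mbtps1, at 17.1 and 16.1, was above it in replicate 1 and below it in replicate 2. The level of Furin was above that of Pcsk1 and below that of Pcsk2 in both libraries. Pcsk7, at 4.63 and 4.11, was close to Pcsk1.

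Genes for the vesicle membrane and for release had calls in both directions. Of 17 tested, 2 were called lower, Syt4 at -0.42 and Ptprn2 at -0.22, and 1 higher, Cadps2 at 0.85, a share near the 17.4% called over all genes. The median log2 ratio was 0.01. Syt4 is a synaptotagmin of dense-core vesicles, Ptprn2 a vesicle membrane protein of the tyrosine phosphatase family, and Cadps2 a priming factor for vesicle fusion. Resp18, a small endocrine secretory protein, had the highest density of this list, at 197 and 246, and was not called at 0.20. With the density trend removed 4 genes of this list were called, beside 16.2% of all genes. Syt4 and Cadps2 kept their calls, Ptprn2 lost its call, and Resp18 and Cadps were called.

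For vesicle biogenesis 13 genes were tested, with 1 called lower, Rab2a at -0.35, and 1 higher, Ccdc186 at 0.62, again near the share over all genes. The median was 0.05. With the density trend removed, Rab2a and Ccdc186 lost their calls and Pi4k2a was called. Whether the members' shift differs from that of these lists was not tested.

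Of 4 proteins reported to bind granin-derived peptides, the 3 membrane receptors had few footprints. Gpr171, a receptor for a proSAAS peptide, had 0 and 3 footprints, Gpr83, a receptor for another, 15 and 60, and C3ar1, a receptor for a VGF peptide, 7 and 23. C1qbp, a mitochondrial protein also reported to bind a VGF peptide, had 328 and 716 and was called lower at -0.49. C1qbp lost this call with the density trend removed. Of 6 transcription regulators, Creb1, whose protein binds the cyclic AMP response element, was called higher in replicate 2, at 0.83 with 64 and 352 footprints. Rest, a repressor of neuronal genes including several granins, had 28 and 78 footprints and was not called at -0.14. Neurod2 was called lower at -0.76 and Neurod1 higher at 0.51.

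**Figure D4:**
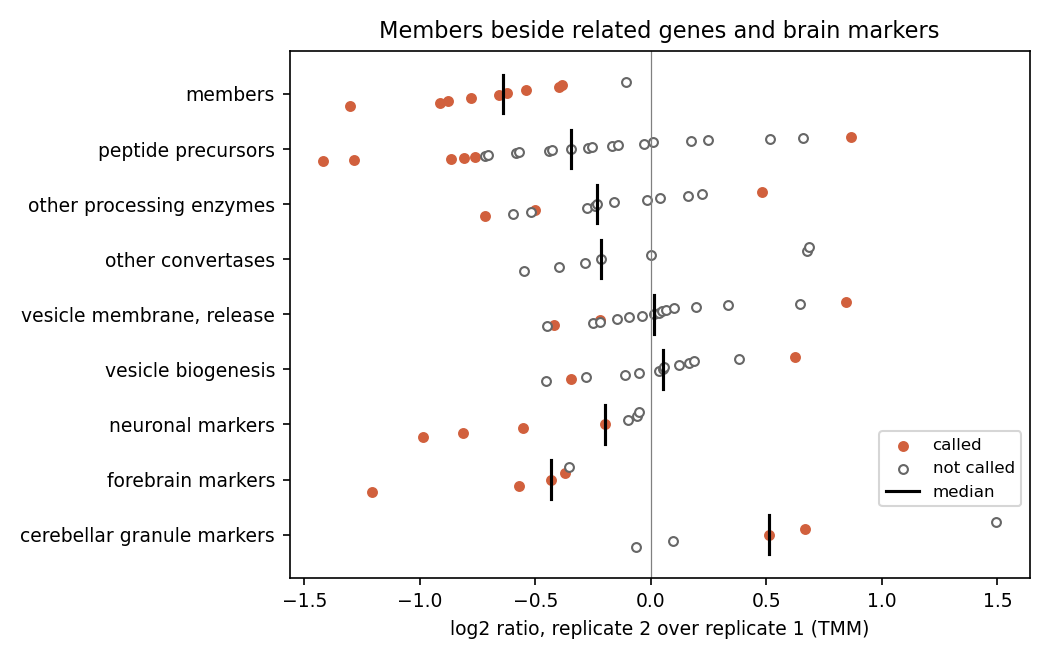
Log2 ratio of replicate 2 over replicate 1 (TMM scaling) for each tested gene of the member list, 5 lists of related genes and 3 marker lists; filled points were called by the exact binomial test, open points were not, and black bars are medians. The member median is -0.64, against -0.35 for peptide precursors, 0.01 for vesicle membrane and release genes, -0.43 for forebrain markers and 0.51 for cerebellar granule markers. With the density trend removed, which is not drawn, the member median is -0.43 and the peptide precursor median -0.40.

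The coding genes nearest to each member by density in both replicates were listed, as a likeness over 2 samples alone. The nearest to Cpe was Bex2 (640.1 and 371), to Chga Efnb3 (212 and 125) and to Vgf Sv2a, a synaptic vesicle protein (225 and 156). The nearest to Scg5 was 2010107E04Rik (499 and 350.0), to Scg2 Reep1 (209 and 176) and to Pcsk2 Sox12 (98.1 and 73.4). Pcsk1n had the most distant nearest gene, Rnf187 (552 and 293), at 1.14-fold, followed by Mrfap1 and App. For the other 9 members the nearest gene lay within 1.04-fold.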

How the data were processed

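Polysomal fractions of 2 brains were digested with RNase I, and the protected fragments were sequenced. Per the file headers, the authors deposited raw counts per transcript with annotated lengths and no normalization. Trimmomatic 0.36, Bowtie2 2.2.6, SAMtools and build GRCm38.p4 are named, with no role or order, per the submitters' processing notes. The counting rule, the annotation release, strand use and the treatment of shared or duplicate fragments are not given in the sources used here.

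Symbols are transcript names without the trailing number. Counts of a gene's transcripts were summed. The coding length is that of the coding transcript with the highest mean count. TMM factors (edgeR 4.0.16) used genes that averaged 10 or more footprints. The exact binomial test (SciPy 1.17.1) was called at an adjusted p under 0.05, and log2 ratios carry a prior of 0.5 CPM. No quasi-likelihood test could be fitted, because the series has 1 group. The trend on density was the median log2 ratio in 20 bins of footprints per transcript length, interpolated. Alternatives were library totals, DESeq2 1.42.0 size factors, edgeR's exact test, the trend removed, the highest transcript, coding transcripts alone, other lengths and no filter. The test was tested on simulated data with counting noise alone, without further spread between libraries.

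The members and gene lists were chosen with earlier results of these data known. Genes named beside the members belong to those lists or are among the 3 coding genes nearest to a member.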

Additional observations from a re-analysis of the deposited data

How the results depend on the processing

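The number of members called was 9 with library totals, DESeq2 size factors, the highest transcript, coding transcripts alone and no filter, 7 with the density trend removed, and 0 with edgeR's exact test. The number of all genes called was 2861, and it was 1445 with the highest transcript and 11 with edgeR's exact test, where the dispersion came from the libraries compared; 719 had an unadjusted p under 0.05. Of the genes called, 1883 were lower in replicate 2, against 1227 of 3123 with library totals, 1479 of 2659 with the trend removed and 1187 of 1445 with the highest transcript. Across the 10 log2 ratios, the sign turned for Pcsk1 with library totals, at 0.0114, and the calls of Scg2 and Scg3 were lost with the trend removed.

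The summed level was 4674 CPM with the highest transcript and 3733 CPM with coding transcripts alone, where the library totals are smaller by construction. It ran from 2289 to 3545 CPM without either replicate. The Scg5 over Pcsk2 ratio was 4.35 with the highest transcript and with coding transcripts alone, and 6.46 by transcript length (4.75 to 5.15 without either replicate). By transcript length Pcsk1n over Pcsk1 was 40.8 and Pcsk2 over Pcsk1 was 9.05. With coding transcripts alone these 2 ratios were 126 and 21.1. Without either replicate these ran from 59.4 to 135 and from 16.1 to 21.6. The Cpe share was 26.3% with the highest transcript, 23.5% with coding transcripts alone and 25.7% by transcript length (21.5 to 23.1 without either replicate). Members in the top 10% numbered 5 to 7 without either replicate and 8 by transcript length. With the highest transcript, Scg2 and Vgf had fewer footprints per coding length than Chgb in both replicates. Vgf then also had fewer than Pcsk2.

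No paired analysis was possible because the series has 1 group. A replicate cannot be left out of the test between the replicates. Depth limits Pcsk1 most, with 19 and 54 footprints.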
